A study of Mus musculus with 9 samples.

Results

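Reporter-positive cells of mouse neural tube organoids were compared between 2 media, N2B27 with SAG and N2B27 with all-trans retinoic acid (RA). The comparison took 6 of the series' 9 RNA-seq libraries, picked by their labels alone: 3 biological replicates of GFP+ cells from SAG medium against 3 of GFP+ cells from RA medium, called SAG and RA replicates here. The 3 remaining libraries hold GFP- cells from RA medium. They entered the filter for tested genes, the scaling and the shared estimate of spread, but not the 2 group means compared. All libraries came from 1 mouse embryonic stem cell line, R1, of the FoxA2-Venus genotype. In this genotype a yellow fluorescent protein, read with a GFP filter set, reports on the transcription factor FoxA2. Organoids grew clonally in Matrigel in N2B27, a serum-free medium, received the new medium on Day 2, and were taken apart 66 h later for sorting into cells of high (GFP+) and low (GFP-) signal. The RA dose reads 250 nM in the series text and 250 µM in the treatment protocol, which was not settled. SAG stands in the sample titles alone, its dose is not given in the sources used here, and whether SAG medium also held RA is not stated. No GFP- group from SAG medium is listed, so the sort and the medium cannot be told apart for a gene that the 2 media could also change in GFP- cells. The number of organoids behind a replicate is not given. The p-values weigh the difference between the media against the spread between replicate libraries, the GFP- ones included.

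SAG is a small molecule that switches on Smoothened, the membrane protein that passes the Hedgehog signal on to the GLI transcription factors. In the embryo Sonic hedgehog from the notochord and from the floor plate, the ventral midline of the neural tube, orders the ventral progenitor types, and Foxa2 is a defining transcription factor of the floor plate. RA acts through nuclear receptors on DNA, switches on its own receptor and breakdown enzymes, and gives neural tissue a hindbrain or spinal cord character through the Hox genes.

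Libraries held 25281871 to 29763765 counts. Levels are given in CPM, the counts of a gene scaled to library size with TMM factors of 0.972 to 1.03. Pearson correlations of log2 CPM were 0.98 to 0.986 within the RA libraries, 0.97 to 0.986 within the SAG libraries and 0.914 to 0.939 between them. The first principal component of the 6 libraries (70.8% of variance) parted the media. The second (12.6%) set SAG replicate 1, at 60.17, apart from SAG replicates 2 and 3, at -12.4 and -36.95. Both groups matched the label of Foxa2-reporter cells: 7 floor plate markers summed to 1060 to 1270 CPM in the RA and 1200 to 1460 CPM in the SAG libraries, against 228 to 249 CPM in the GFP- libraries. Markers of other cell types differed between the 2 GFP+ groups. The 4 neural progenitor markers (Sox1, Sox2, Sox3, Nes) summed to 324 to 480 CPM under RA and 943 to 1020 CPM under SAG. The 6 endoderm markers summed to 48.4 to 70.9 against 3.45 to 8.02 CPM, with Afp at 0 counts under SAG, and the 5 mesenchyme markers to 29.6 to 43.8 against 12.1 to 17 CPM, with Osr1 at 0 counts under SAG. The 3 neuron markers summed to 43 to 51.7 against 260 to 356 CPM. In the GFP- libraries, also from RA medium, neural progenitor markers summed to 842 to 891 CPM and neuron markers to 198 to 249 CPM. Endoderm markers summed there to 4.83 to 6.18 CPM and mesenchyme markers to 6.95 to 7.96 CPM. For these 4 types the low neural and high endoderm and mesenchyme sums were thus seen in RA GFP+ cells, not in all cells from RA medium. How far cell makeup entered the results below was not tested, and in bulk RNA fewer cells of a type cannot be told apart from less RNA per cell.

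**Figure D1:**
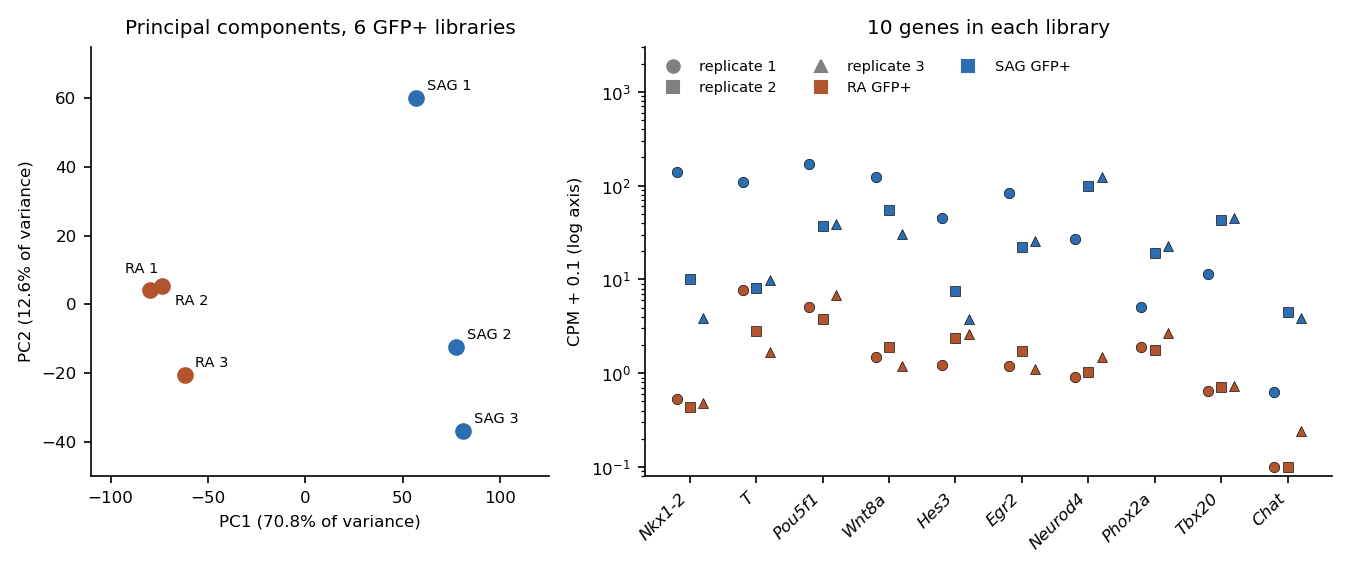
Left, the 6 GFP+ libraries on the first 2 principal components of log2 CPM over the tested genes, with RA libraries in brown and SAG libraries in blue. Right, CPM plus 0.1 on a log axis for 10 genes, with symbols for replicates 1 to 3; SAG replicate 1 is the highest SAG library for the 6 genes on the left and the lowest for the 4 on the right.

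Of 16772 genes tested, 4117 differed between the media (24.5%), at an adjusted p under 0.05 by edgeR's quasi-likelihood test with Benjamini-Hochberg adjustment. Of these, 1641 (9.78% of tested genes) were higher and 2476 (14.8%) were lower in SAG than in RA cells, and every adjusted p in the text is from this test unless another is named. At 2-fold or more, 903 genes were higher and 1696 lower, and at 16-fold or more 62 were higher and 370 lower. The median log2 fold change over all tested genes was -0.02. The 3 SAG values lay wholly above or below the 3 RA values for 7203 genes (42.9%), and for 4035 of the 4117 called genes. Leaving out single libraries moved the number of higher genes from 1641 to 954 without RA replicate 1 and to 957 without RA replicate 2. Below, "higher" and "lower" are used only of genes called by the test and mean higher or lower in SAG cells, and fold changes are log2 values with their standard error (SE). Groups of genes are described by how many tested members were called, to be read against 9.78% higher and 14.8% lower over all genes. For each called gene given below with its values in all 6 libraries, the SAG and the RA values did not overlap. Where leaving out 1 GFP+ library, SAG replicate 1 included, moved the fold of such a called gene by over 1.5 times, the log2 fold change without that library stands beside it. Where the group was then left with 0 to 3 counts, the bound against a floor of 3 counts, or the ratio of counts with its 95% exact interval, stands there instead.

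**Figure D2:**
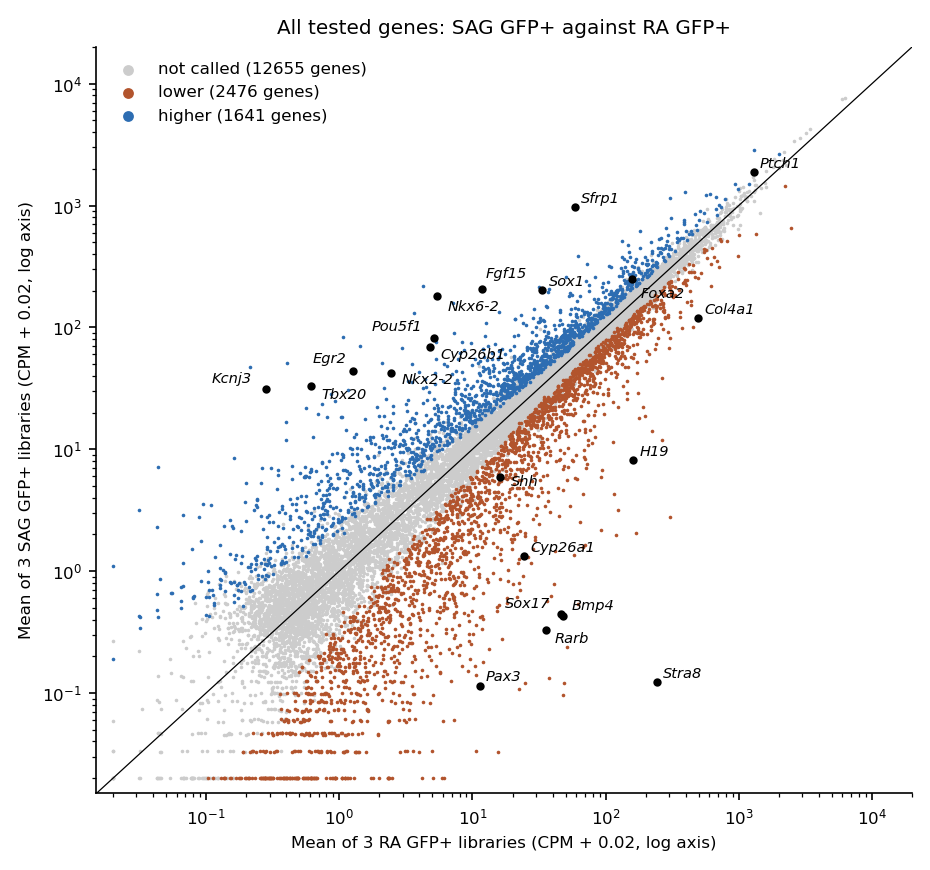
Mean CPM plus 0.02 of the 3 SAG libraries against that of the 3 RA libraries for each tested gene, both axes logarithmic, with the line of equal level. Genes called higher (1641) lie above the line, genes called lower (2476) below it, and the lower genes reach farther from the line.

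Genes that RA itself induces were mostly lower under SAG, with the RA-inducible genes Stra8 and Rarb near 0. Of 15 tested genes of the RA response list, 8 were lower and 2 higher, with a median log2 fold change of -2.0. Stra8, a germ cell gene named for its stimulation by RA, stood at 188, 324 and 213 CPM in RA replicates 1 to 3 and at 0.0407, 0.112 and 0.156 CPM in SAG replicates 1 to 3. All 3 RA values lay far above the SAG values (log2 fold change -11.12 ± 0.34, adjusted p = 1.78e-08), and no other of the 16772 genes had as low an adjusted p. The SAG libraries held 8 counts of Stra8 together, so the direction is clear but the size of the fold is uncertain. Rarb, the RA receptor that RA itself induces, read 18.1, 44.6 and 44 CPM under RA and 0.0815, 0.337 and 0.506 CPM under SAG (log2 fold change -6.82 ± 0.53, adjusted p = 8.8e-06). RA replicate 1 was the lowest RA library for Rarb and was still far above each SAG library. Cyp26a1, an enzyme that breaks RA down, read 20.9, 29.3 and 23.2 CPM under RA and 1.91, 0.562 and 1.48 CPM under SAG (log2 fold change -4.22 ± 0.37, adjusted p = 1.9e-05), without overlap. Its neighbour and relative Cyp26c1 (-3.79 ± 0.85; -3.18 without RA replicate 3, -3.19 without SAG replicate 2 and 38.5-fold lower by counts (10.4 to 321) without SAG replicate 3), the retinal reductase gene Dhrs3 (-2.55 ± 0.59), the retinol-uptake receptor Stra6 (-1.22 ± 0.26) and Tgm2 (-2.0 ± 0.39) were lower too. The third RA-degrading enzyme, Cyp26b1, went the other way. It read 2.19, 6.72 and 5.41 CPM under RA and 73.2, 81.4 and 53.3 CPM under SAG (log2 fold change 3.85 ± 0.35, adjusted p = 2.26e-05), with every SAG value above every RA value. Crabp1, which binds RA in the cytoplasm, was also higher, from 126, 296 and 494 CPM to 659, 1359.8 and 1453 CPM (log2 fold change 1.92 ± 0.42, adjusted p = 0.00591). Of 11 receptor and RA-synthesis genes, 1 was higher (2 without SAG replicate 3) and 1 lower. These were the receptor Rxrg (3.76 ± 0.71; 3.04 without SAG replicate 1) and the RA-making enzyme Aldh1a1 (-3.79 ± 0.72; -3.01 without RA replicate 3). The receptors Rara and Rarg had log2 fold changes of -0.01 and -0.09 and were not called.

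Because RA receptors bind DNA at paired half-sites, the RefSeq promoter windows (build GRCm38.p6; 250 bases before to 50 after a start) of 11728 tested genes were searched on both strands for exact pairs of the half-sites AGGTCA or AGTTCA or GGTTCA. Pairs spaced by 5 bases stood in the windows of 5 genes (0.0426%). Of these, 2 were among the 1847 lower genes with a window (0.108%) and 0 among the 1187 higher genes, and both were RA response genes described above. The 2 windows are shown 5′ to 3′ on the gene's strand, in lower case with the pair in capitals; in Cyp26a1 the pair reads on the opposite strand.
Rarb, chr14:16575427-16575726, minus strand: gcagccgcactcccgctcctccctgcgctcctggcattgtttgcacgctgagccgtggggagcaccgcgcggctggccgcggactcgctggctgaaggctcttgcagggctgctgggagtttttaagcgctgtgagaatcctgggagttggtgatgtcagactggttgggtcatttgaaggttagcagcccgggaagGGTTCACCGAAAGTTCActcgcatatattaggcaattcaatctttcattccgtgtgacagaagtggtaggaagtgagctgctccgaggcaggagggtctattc
Cyp26a1, chr19:37697558-37697857, plus strand: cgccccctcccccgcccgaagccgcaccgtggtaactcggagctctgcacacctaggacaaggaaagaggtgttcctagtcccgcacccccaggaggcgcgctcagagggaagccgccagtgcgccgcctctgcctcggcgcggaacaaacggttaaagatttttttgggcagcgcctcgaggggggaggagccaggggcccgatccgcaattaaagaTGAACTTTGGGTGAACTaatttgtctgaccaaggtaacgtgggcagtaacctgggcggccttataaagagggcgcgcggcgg
The Rarb pair begins 53 bases before the start and the Cyp26a1 pair 32 bases before it. Half-sites spaced by 2 bases stood in the windows of 3 genes (0.0256%), with 0 among higher and 0 among lower genes. The GLI site TGGGTGGTC stood in 6 windows of higher genes (0.505%), 6 of lower genes (0.325%) and 32 of all genes (0.273%). A match describes letters in these windows and was not tested as a binding site.

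The reporter's own gene was slightly higher under SAG, while several floor plate genes, Shh among them, were lower. Foxa2 read 184, 157 and 133 CPM under RA and 326, 212 and 205 CPM under SAG, a 1.57-fold difference at the edge of the threshold (log2 fold change 0.65 ± 0.22, adjusted p = 0.0497). Its SAG values all exceeded its RA values, SAG replicate 1 was the highest, and the call was lost in several alternatives (over 17 alternatives adjusted p from 0.00085 to 0.147, above 0.05 without RA GFP- replicate 3, RA replicates 1, 2 or 3 or SAG replicates 1 or 2). Both groups were sorted on a Foxa2 reporter. Of 19 tested floor plate genes, 4 were higher (2 without RA replicate 2 or SAG replicate 2) and 7 lower. Shh, the signal that the floor plate secretes, read 15.4, 11.8 and 21.2 CPM under RA and 3.01, 8.28 and 6.35 CPM under SAG (log2 fold change -1.46 ± 0.36, adjusted p = 0.0128), with no SAG value as high as an RA value. Foxa1, the close relative of Foxa2, fell from 32.8, 52.7 and 71.5 CPM under RA to 7.62, 12.7 and 10.4 CPM under SAG (log2 fold change -2.35 ± 0.30, adjusted p = 0.000215). Lmx1b (-1.70 ± 0.23), the guidance gene Sema3b (-1.19 ± 0.20) and the adhesion gene Chl1 (-1.45 ± 0.33) were lower as well. The guidance ligand Slit3 (1.09 ± 0.23) and the cilium regulator Rfx4 (1.6 ± 0.38) were higher. Ntn1, the floor plate's axon attractant, read 390.2, 454 and 646 CPM under RA and 355, 498 and 442 CPM under SAG. Its values overlapped between the media and it was not called (log2 fold change -0.20 ± 0.19, adjusted p = 0.48).

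Hedgehog target genes, at high levels in both media, gave 1 call. Ptch1, the receptor gene that reports pathway activity, read 1512, 1342 and 1026 CPM under RA and 1926, 1742 and 2006 CPM under SAG (log2 fold change 0.55 ± 0.15, adjusted p = 0.0187). The SAG values were all above the RA values, 1.46-fold by the fit, and the call depended on single libraries (over 17 alternatives adjusted p from 0.00107 to 0.0642, above 0.05 without RA replicates 2 or 3 or SAG replicate 3). It was the 1 called gene of 4 such targets (0 without RA replicates 2 or 3). Gli1 (0.06 ± 0.18) and Hhip (0.37 ± 0.29) did not pass. Among 16 pathway components, 6 were lower and 1 higher (0 without RA replicate 1, 2 without SAG replicate 3). The 3 co-receptors that hold Hedgehog ligand for Ptch1 were all lower: Cdon (-2.03 ± 0.23, adjusted p = 0.000104), Boc (-1.39 ± 0.18) and Gas1 (-1.61 ± 0.23). Cdon read 95.1, 138 and 174 CPM under RA and 35.1, 31.8 and 32.9 CPM under SAG. Gli3, the GLI factor with a main role as a repressor, was lower (-1.33 ± 0.24), while Gli2, the main activator, read 30.2, 40.3 and 43.6 CPM under RA and 111, 53.9 and 68.2 CPM under SAG (log2 fold change 1.03 ± 0.26, adjusted p = 0.0139; over 17 alternatives adjusted p from 2.53e-06 to 0.06, above 0.05 without RA replicate 1).

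Homeobox genes of the ventral progenitors next to the floor plate were much higher under SAG. Nkx2-2, the homeobox gene of the p3 domain, read 3.21, 2.49 and 1.6 CPM under RA and 35.5, 39.5 and 51.5 CPM under SAG (log2 fold change 4.12 ± 0.28, adjusted p = 3.78e-06). Nkx6-1, which spans the ventral domains, read 59.1, 61.4 and 65.5 CPM and 308, 445 and 404 CPM (log2 fold change 2.64 ± 0.15, adjusted p = 1.04e-06), and Nkx6-2 read 4.23, 7.59 and 4.39 CPM and 159, 177 and 208 CPM (log2 fold change 5.06 ± 0.32, adjusted p = 2.55e-06). In all 3 genes the replicates of a medium lay close together and the media did not overlap. With Olig1 (1.97 ± 0.50; over 17 alternatives adjusted p from 0.00126 to 0.0597, above 0.05 without RA replicates 1 or 2), 4 of 7 tested ventral genes were higher. The 1 lower gene, Sim1, marks V3 interneurons that descend from p3 cells (-1.89 ± 0.47; over 17 alternatives adjusted p from 0.00147 to 0.0544, above 0.05 without RA replicate 3), leaving 0 without RA replicate 3. Olig2, the motor neuron progenitor gene, was not called (1.46 ± 0.64, adjusted p = 0.123), nor was Nkx2-9 (0.70 ± 0.35).

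**Figure D3:**
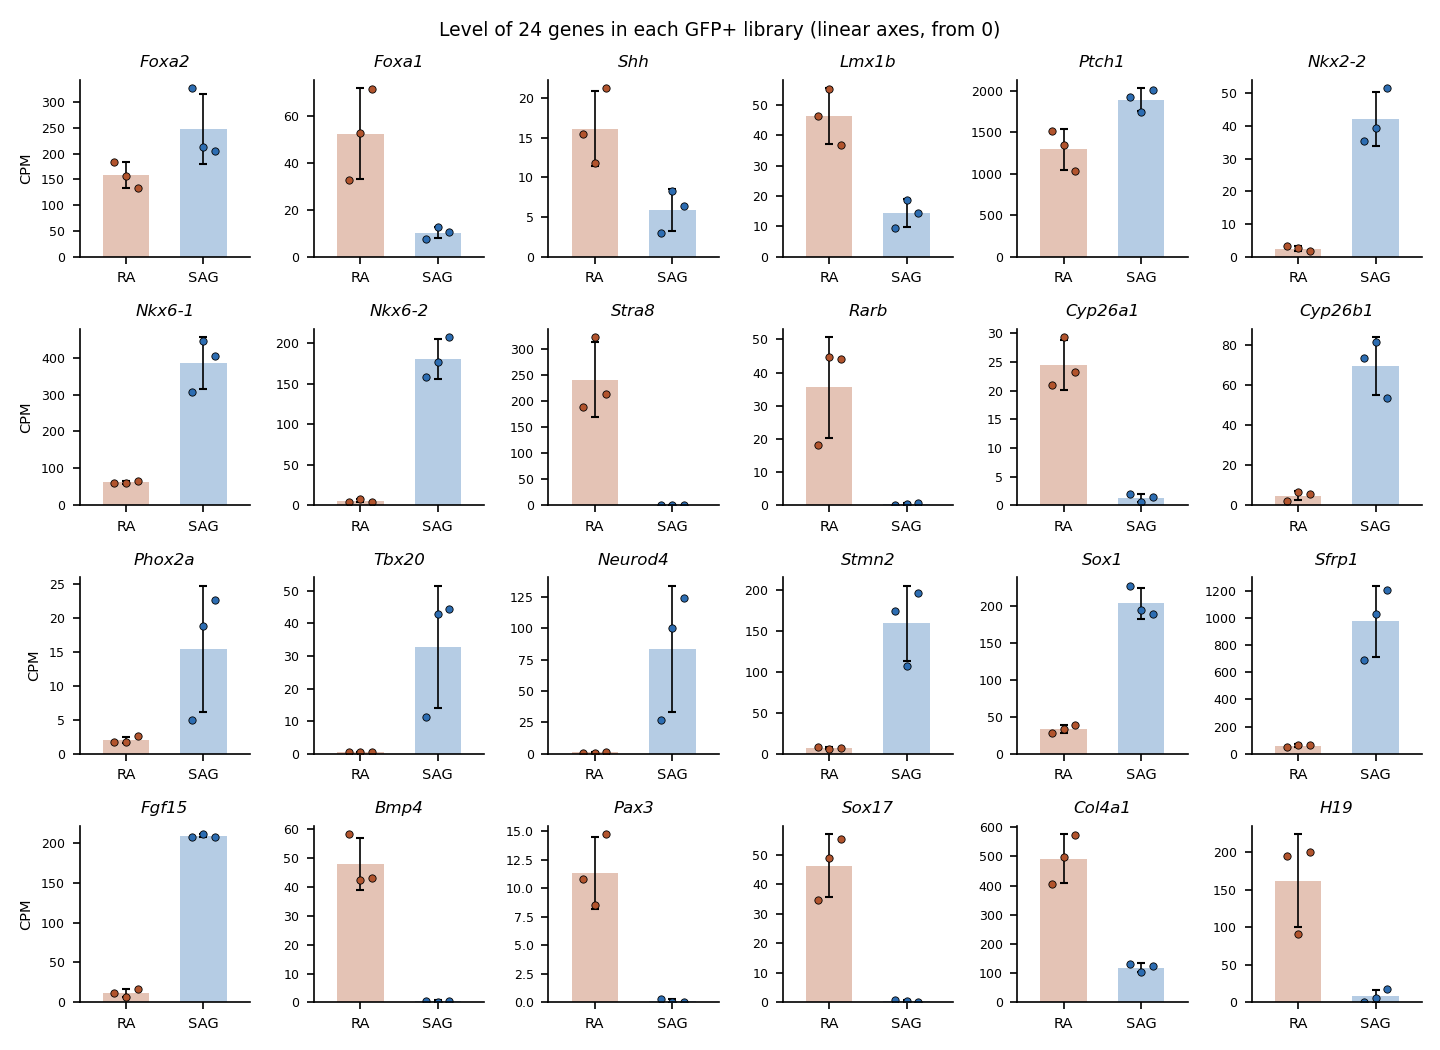
CPM of 24 genes in each RA (brown) and SAG (blue) GFP+ library on linear axes from 0; points are replicates 1 to 3 from left to right, bars are means and error bars the SD of 3 libraries. Stra8, Rarb, Bmp4, Pax3 and Sox17 are near 0 in each SAG library, and Nkx6-2, Tbx20 and Neurod4 are near 0 in each RA library.

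Intermediate and dorsal progenitor genes held more lower than higher genes. The intermediate list of 10 tested genes had 4 lower and 0 higher (1 without RA replicate 1 or SAG replicate 3). Dbx1 (-5.60 ± 1.14; -4.53 without RA replicate 3 and 86.5-fold lower by counts (23.7 to 717) without SAG replicate 2; over 17 alternatives adjusted p from 1.49e-15 to 0.12, above 0.05 with limma-voom), Prdm13 (-4.27 ± 0.84; 49.6-fold lower by counts (13.5 to 413) without SAG replicate 1 and -3.67 without SAG replicate 2) and Prdm12 were among the lower ones. Prdm12 had 72 counts over the RA libraries and 1 over the SAG libraries, a ratio of 66 (95% exact interval 11.5 to 2640; at least 15-fold lower without SAG replicate 1). The dorsal list, which includes the roof plate, had 6 of 17 genes lower and 2 higher (1 without RA replicates 1 or 2). Pax3, which marks the dorsal neural tube, read 10.8, 8.54 and 14.7 CPM under RA and 0.285, 0 and 0 CPM under SAG (log2 fold change -6.89 ± 0.58, adjusted p = 1.52e-05; at least 198-fold lower without SAG replicate 1 and -6.28 without SAG replicate 2). Its relative Pax7 (-4.97 ± 0.58; -5.84 without SAG replicate 1) and the BMP-induced Msx1 (-5.43 ± 0.62; -6.78 without SAG replicate 1), Msx2 (-3.70 ± 0.34) and Msx3 (-2.42 ± 0.44) were lower with it.

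Hox genes, which record position along the body axis, went both ways: Hoxb1 and both group 2 genes were higher, and the tested genes of groups 4 and 5 lower. Hoxd1 was not called (-2.29 ± 0.79). Of the 28 tested Hox genes of 39 in the table, 6 were higher and 13 lower. Hoxb1, the gene of the fourth rhombomere, read 4.04, 12.3 and 22.6 CPM under RA and 27.3, 95.8 and 89.8 CPM under SAG (log2 fold change 2.45 ± 0.57, adjusted p = 0.00902; 3.11 without RA replicate 3). Hoxa2 read 4.35, 7.16 and 10.6 CPM and 26, 38.6 and 39.9 CPM (log2 fold change 2.24 ± 0.30, adjusted p = 0.000284), and Hoxb2 read 13.2, 31 and 48.9 CPM and 83.3, 134 and 114 CPM (log2 fold change 1.83 ± 0.36, adjusted p = 0.00317). Each of these 3 was higher in every SAG library than in every RA library. All 6 tested genes of groups 4 and 5 were lower, from Hoxb4 (-1.64 ± 0.50; -0.78 without RA replicate 3; over 17 alternatives adjusted p from 1.1e-07 to 0.159, above 0.05 without RA replicate 3 or SAG replicates 1, 2 or 3 and with limma-voom or the 6 GFP+ libraries alone) to Hoxc5, which read 4.9, 12 and 47.5 CPM under RA and 0.855, 0.637 and 0.273 CPM under SAG (log2 fold change -5.18 ± 0.91, adjusted p = 0.0017; -3.84 without RA replicate 3). The calls of Hoxa5 (-1.96 ± 0.56) and Hoxb5 (-3.15 ± 0.92) were not stable either. Over 17 alternatives their adjusted p reached 0.097 and 0.172. Both were above 0.05 without RA replicate 3 or SAG replicates 2 or 3 and with limma-voom. Hoxb4 and Hoxb5 values overlapped between the media. RA replicate 1 was the lowest and RA replicate 3 the highest RA library for Hoxb1, Hoxa2, Hoxb2, Hoxb4 and Hoxc5. Past group 5 the picture was mixed. Hoxa7 (-1.23 ± 0.30) and Hoxd8 (-2.40 ± 0.39) were lower. Hoxb9 read 1.25, 2.32 and 6.1 CPM under RA and 24.2, 18.1 and 19.2 CPM under SAG (log2 fold change 2.66 ± 0.75, adjusted p = 0.0228; 3.51 without RA replicate 3; over 17 alternatives adjusted p from 9.58e-10 to 0.0885, above 0.05 without RA replicates 1 or 2), and with Hoxc6 (1.98 ± 0.61; 2.98 without RA replicate 3; over 17 alternatives adjusted p from 0.00107 to 0.122, above 0.05 without RA replicates 1 or 2 or SAG replicates 2 or 3) made 2 higher genes of groups 5 to 9 (0 without RA replicate 2, 1 without RA replicate 1 or SAG replicates 2 or 3). Hoxb8, Hoxc8 and Hoxa9 had log2 fold changes of 0.17, 0.18 and 0.13, were not called, and changed sign when single libraries were left out. Of 3 tested genes of groups 10 to 13, 2 were lower (1 without RA replicate 2 or SAG replicates 2 or 3): Hoxc13 (-2.58 ± 0.62; over 17 alternatives adjusted p from 0.000448 to 0.058, above 0.05 without RA replicate 2) and Hoxb13, with 46 counts under RA and 2 under SAG (at least 9.57-fold lower without SAG replicate 1).

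**Figure D4:**
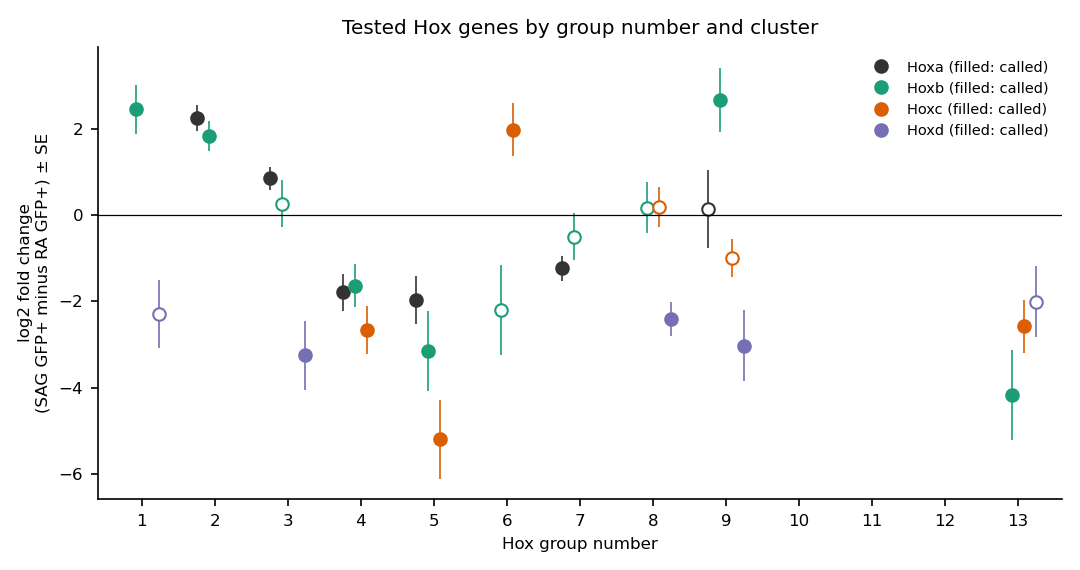
Log2 fold change (SAG GFP+ minus RA GFP+) with its SE for the tested Hox genes, 1 left out, against their group number, coloured by cluster; filled points are called genes. Hoxb1, Hoxa2 and Hoxb2 lie above 0, and all 6 genes of groups 4 and 5 below it.

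Hindbrain genes outside the Hox clusters split too. Of 18 tested, 6 were higher and 4 lower. Egr2, also called Krox20, marks rhombomeres 3 and 5. It read 1.1, 1.61 and 1.01 CPM under RA and 83.5, 21.8 and 25.5 CPM under SAG (log2 fold change 5.12 ± 0.64, adjusted p = 0.000187; 4.27 without SAG replicate 1), and SAG replicate 1 was the highest library. Gbx2, of the anterior hindbrain, read 15.1, 21.2 and 14.6 CPM and 89.1, 33.7 and 29.2 CPM (log2 fold change 1.58 ± 0.37, adjusted p = 0.00889; 0.91 without SAG replicate 1). The forebrain list had 10 of 19 tested genes lower (5 without RA replicate 2) and 0 higher (1 without SAG replicate 1), at low levels throughout. Hesx1, a homeobox gene of the anterior forebrain and pituitary, had 238 counts under RA and 1 under SAG, a ratio of 218 (95% exact interval 38.8 to 8650; at least 47.5-fold lower without SAG replicate 2). Midbrain and isthmus genes went both ways, with 4 of 15 higher and 5 lower (8 without SAG replicate 1). Pax5 read 0.235, 0.437 and 0.453 CPM under RA and 21.1, 12.6 and 16 CPM under SAG (log2 fold change 5.44 ± 0.65, adjusted p = 0.00014), and En1 (3.27 ± 0.44) and Foxb1 (3.19 ± 0.34) were higher with it. Pax2 (-2.14 ± 0.36) and Dmbx1 (-3.15 ± 0.41) were lower.

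Nearly all tested pan-neural progenitor genes were higher under SAG. Of 12 pan-neural progenitor genes, 11 were higher and 0 lower. The count of higher genes was 6 without RA replicate 1, 7 without RA replicate 2. The marker sum of neural progenitors given above moved the same way, and its part in this count was not tested. Sox1, the first gene of the definitive neuroepithelium, read 27.6, 33.7 and 39 CPM under RA and 227, 194 and 188 CPM under SAG (log2 fold change 2.60 ± 0.16, adjusted p = 1.97e-06). The radial glial gene Fabp7 (3.37 ± 0.27), the intermediate filament Nes (1.59 ± 0.24) and Sox3 (1.81 ± 0.40; 2.45 without RA replicate 3) were higher in every SAG library. Sox2, shared by neural and pluripotent cells, differed by little: 215, 259.7 and 259 CPM against 313, 383 and 319.9 CPM (log2 fold change 0.47 ± 0.13, adjusted p = 0.0246; over 17 alternatives adjusted p from 0.00922 to 0.116, above 0.05 without RA replicates 1 or 2 or SAG replicate 2).

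Genes of neuronal commitment and of neurons were higher as well. Of 14 proneural factors, 8 were higher and 1 lower (0 without RA GFP- replicates 2 or 3, RA replicates 2 or 3 or SAG replicates 1, 2 or 3). Neurod4 read 0.823, 0.941 and 1.4 CPM under RA and 27, 99.8 and 124 CPM under SAG (log2 fold change 6.30 ± 0.58, adjusted p = 2.46e-05). Insm1, a zinc finger factor of newly born neurons, read 1.76, 1.81 and 2.65 CPM and 24.8, 64.4 and 64.1 CPM (log2 fold change 4.62 ± 0.38, adjusted p = 1.23e-05), and Ebf1 (3.11 ± 0.34) and Ebf3 (2.89 ± 0.44) were higher too. SAG replicate 1 was the lowest SAG library for Neurod4, Insm1, Ebf1 and Ebf3 and still above all RA libraries. Neurog1 (-0.15 ± 0.78) and Neurog2 (0.10 ± 0.54) were not called. Of 19 neuron genes, 15 were higher and 0 lower, with a median of 2.29, and the 15 stayed 15 whichever library was left out. Stmn2, a microtubule regulator of growing axons, read 8.27, 6.42 and 6.52 CPM and 174, 107 and 196 CPM (log2 fold change 4.49 ± 0.25, adjusted p = 9.07e-07). Elavl3 (3.03 ± 0.38), Crmp1 (2.40 ± 0.16), the neurofilament Nefl (2.39 ± 0.33) and the synaptic gene Snap25 (3.5 ± 0.38) were further examples, while Dcx (0.80 ± 0.45) and Mapt (0.06 ± 0.41) did not pass.

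Motor neuron genes split, with Phox2a and Tbx20, which mark visceral and branchial motor neurons of the hindbrain, both higher. Tbx20 read 0.549, 0.605 and 0.628 CPM under RA and 11.2, 42.7 and 44.5 CPM under SAG (log2 fold change 5.78 ± 0.61, adjusted p = 6.05e-05), and Phox2a 1.8, 1.68 and 2.58 CPM and 4.93, 18.8 and 22.5 CPM (log2 fold change 2.93 ± 0.51, adjusted p = 0.0017). In both genes SAG replicate 1 was the lowest SAG library, and no RA library reached it. The acetylcholine-making enzyme Chat (5.79 ± 1.23; at least 54.1-fold higher without RA replicate 3), its vesicle transporter Slc18a3 (3.31 ± 0.63; 3.92 without RA replicate 2) and Isl1 (2.13 ± 0.51; over 17 alternatives adjusted p from 4.04e-07 to 0.0542, above 0.05 with limma-voom) were also among the 6 higher of 10 tested. Mnx1, of spinal somatic motor neurons, was lower, from 7.6, 10.1 and 11.2 CPM to 2.32, 1.91 and 2.34 CPM (log2 fold change -2.14 ± 0.27, adjusted p = 0.000212), as were Tbx2 (-3.04 ± 0.59; -3.78 without SAG replicate 1) and Tbx3 (-4.71 ± 0.48; -6.08 without SAG replicate 3). Of 11 interneuron factors, 5 were lower and 2 higher (1 without RA replicate 2 or SAG replicate 2). Gata3 (-2.43 ± 0.34) and Barhl2 (-5.42 ± 0.72) were lower, and Lbx1, of dorsal interneurons, had 77 counts under RA and 0 under SAG, at least 23.5-fold lower against a floor of 3 counts over the group. Ion channel and transmitter receptor genes had 11 of 19 higher and 2 lower (1 without RA replicate 3 or SAG replicates 2 or 3). Kcnj3, a potassium channel subunit, read 0.235, 0.235 and 0.314 CPM and 40.9, 23 and 29.8 CPM (log2 fold change 6.87 ± 0.41, adjusted p = 1.96e-06), and the glutamate receptor subunits Grik3 (2.28 ± 0.19) and Gria4 (2.82 ± 0.26) were higher.

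Notch signalling holds neighbouring cells in the progenitor state during neurogenesis. Of 23 Notch pathway genes, 11 were higher and 5 lower (3 without RA replicate 2 or SAG replicate 2). The sugar-adding modifiers Mfng (2.62 ± 0.19) and Lfng (2.49 ± 0.20), the ligands Dll3 (1.39 ± 0.15) and Jag1 (1.36 ± 0.22) and the target Hes5 (1.75 ± 0.40) were higher. Lfng read 8.58, 12.7 and 14.4 CPM under RA and 58.3, 75.2 and 67 CPM under SAG. The receptor Notch3 (-0.75 ± 0.16), the target Heyl (-3.06 ± 0.45) and the atypical ligand Dlk1 (-1.53 ± 0.25) were lower.

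Genes of BMP signalling, the dorsal counterpart of Hedgehog in the neural tube, were mostly lower among both ligands and targets. Of 16 ligands and antagonists, 10 were lower and 2 higher. Bmp4 read 58.2, 42.4 and 43.2 CPM under RA and 0.611, 0.112 and 0.506 CPM under SAG (log2 fold change -6.87 ± 0.46, adjusted p = 3.47e-06), with every SAG library below 1 CPM. Bmp2 (-4.14 ± 0.66) and Bmp7 (-0.73 ± 0.15) were lower, and so was the antagonist Nog (-2.03 ± 0.45). The antagonists Fst (2.04 ± 0.37) and Chrdl1 (2.16 ± 0.46) were higher. Of 11 target genes, 7 were lower and 0 higher, with Id3 at 142, 122 and 168 CPM and 80.6, 73.8 and 55.1 CPM (log2 fold change -1.04 ± 0.17, adjusted p = 0.000986) and the inhibitory Smad6 (-1.43 ± 0.21) and Smad7 (-1.40 ± 0.20) also lower. Msx1 and Msx2 belong to this list and to the dorsal one, and a gene in several lists counts in each.

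Other signals differed by family. The Nodal antagonists Lefty1 (-2.81 ± 0.57; -2.20 without RA replicate 1) and Lefty2 (-4.88 ± 0.78; -6.55 without SAG replicate 1) were among 6 lower of 11 Nodal and TGF-beta genes. The 2 higher ones became 0 without RA replicate 2 or SAG replicate 1, 1 without RA replicates 1 or 3 or SAG replicate 2. Of 20 WNT targets and inhibitors, 13 were lower and 3 higher. Axin2, the general WNT target, read 100.2, 76.2 and 82.1 CPM under RA and 62.5, 37.1 and 39.2 CPM under SAG (log2 fold change -0.90 ± 0.20, adjusted p = 0.00619). Sp5 (-4.78 ± 0.95; -7.84 without SAG replicate 1) and the secreted inhibitors Dkk1 (-5.07 ± 0.75; -4.38 without RA replicate 1 and -6.0 without SAG replicate 1) and Dkk3 (-2.86 ± 0.21) were lower. Sfrp1, another secreted inhibitor, was higher, from 46.7, 62.6 and 67.1 CPM to 689, 1028 and 1206 CPM (log2 fold change 4.05 ± 0.25, adjusted p = 2.37e-06), and Lef1 (1.80 ± 0.41), a nuclear partner of beta-catenin, was higher as well. Of 17 WNT ligands, 2 were higher, Wnt8a (5.61 ± 0.51; 4.93 without SAG replicate 1) and Wnt7a (2.93 ± 0.47; 3.56 without RA replicate 3). The 5 lower ligands, which included Wnt6 (-4.20 ± 0.68; -5.76 without SAG replicate 1) and Wnt7b (-4.80 ± 0.65; -4.13 without RA replicate 3 and 52.5-fold lower by counts (17.8 to 256) without SAG replicate 3), became 8 without RA GFP- replicates 1, 2 or 3 or SAG replicate 3, 10 without SAG replicate 1. FGF genes leaned higher, with 8 of 21 higher (5 without RA replicate 2) and 1 lower (0 without RA replicate 1 or SAG replicate 2, 2 without SAG replicate 1). Fgf15 led them with 12.2, 6.75 and 16.3 CPM under RA and 207, 211 and 208 CPM under SAG (log2 fold change 4.15 ± 0.33, adjusted p = 8.9e-06), and its SAG replicates agreed closely. Fgf8 (-0.13 ± 0.60) was not called.

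The matrix and the surface of the cells differed. Of 19 basement membrane genes, 13 were lower and 0 higher (1 without RA replicate 3 or SAG replicate 2), with a median of -1.19. Col4a1, a chain of the network-forming collagen IV, read 406, 497 and 573 CPM under RA and 131, 104 and 123 CPM under SAG (log2 fold change -2.04 ± 0.14, adjusted p = 4.48e-06). Its partner Col4a2 (-2.13 ± 0.14), the laminin chains Lamb1 (-1.68 ± 0.21) and Lamc1 (-0.74 ± 0.12), perlecan (Hspg2, -1.33 ± 0.21), agrin (Agrn, -0.88 ± 0.14) and nidogen 2 (Nid2, -1.20 ± 0.17) were lower, while Lama1 (-0.09 ± 0.28) and Fn1 (-0.31 ± 0.26) did not pass. Of 23 cadherin and adhesion genes, 8 were higher, among them the neural adhesion molecule Ncam1 (2.18 ± 0.27) and Cdh22 (2.96 ± 0.37), and 2 lower, with Cdh3 at -3.54 ± 0.42. The class 3 semaphorins Sema3a (-3.42 ± 0.23) and Sema3d (-4.19 ± 0.39) and their receptor Nrp1 (-2.93 ± 0.47) were lower, within 5 lower and 2 higher of 25 (4 without SAG replicate 1). Sema3a read 26.2, 30.0 and 29.7 CPM under RA and 2.65, 3.37 and 1.99 CPM under SAG. Of 20 other axon guidance genes, 4 were higher (2 without RA replicates 1 or 2 or SAG replicates 2 or 3) and 3 lower, the latter with Robo1, a receptor for Slit proteins (log2 fold change -1.45 ± 0.21, adjusted p = 0.00049). Ephrins and their receptors had 4 of 20 higher (1 without RA replicate 2, 2 without RA replicates 1 or 3 or SAG replicates 1 or 2) and 3 lower (5 without SAG replicate 1), with the ligands Efna1 (-1.63 ± 0.34) and Efna3 (-1.15 ± 0.22) lower and Efnb3 (0.69 ± 0.16) higher. Heparan sulfate proteoglycans and their editing enzymes, which tune how Hedgehog, WNT and FGF ligands spread, had 7 of 19 lower and 1 higher (0 without RA replicate 2 or SAG replicates 2 or 3). Gpc3 (-1.52 ± 0.23), Sdc4 (-1.21 ± 0.24) and Hs6st1 (-1.12 ± 0.13) were among the lower ones. Genes of the cilium, the organelle in which Smoothened acts, had 2 of 20 higher (1 without RA GFP- replicate 2, RA replicates 1 or 2 or SAG replicate 2) and 2 lower (0 without RA replicate 2 or SAG replicates 2 or 3, 1 without RA replicate 1).

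Germ cell and pluripotency genes differed by class. Of 15 germline genes, 12 were lower and 0 higher, with a median of -4.16, and Stra8 belongs to this list as well. Prdm1, which specifies germ cells and has other embryonic roles, read 82, 122 and 79.2 CPM under RA and 6.44, 5.99 and 7.82 CPM under SAG (log2 fold change -3.80 ± 0.20, adjusted p = 7.1e-07). Ddx4, an RNA helicase of germ cells, read 27.2, 20.8 and 19 CPM and 1.59, 0.862 and 1.28 CPM (log2 fold change -4.16 ± 0.28, adjusted p = 3.64e-06). Dazl, an RNA-binding protein of germ cells, had 206 counts under RA and 0 under SAG, at least 62.9-fold lower against the floor. Rhox6, an X-linked homeobox gene, had 494 and 0 counts, at least 151-fold lower. Dmrt1 and Sohlh2, gonadal transcription factors outside the list, were among the 15 largest falls, Dmrt1 from 76, 63 and 46.3 CPM to 0.815, 0.300 and 0.428 CPM (log2 fold change -6.91 ± 0.32, adjusted p = 2.51e-07) and Sohlh2 from 61.1, 34.2 and 48.2 CPM to 0, 0.0749 and 0.156 CPM (log2 fold change -9.18 ± 0.51, adjusted p = 1.03e-06; 1210-fold lower by counts (334 to 9980) without SAG replicate 3). Of 16 naive pluripotency genes, 9 were lower and 2 higher. Zfp42, also called Rex1, read 12.2, 7.93 and 8.27 CPM and 0.204, 0.187 and 0.467 CPM (log2 fold change -5.02 ± 0.34, adjusted p = 3.47e-06), and Esrrb (-2.51 ± 0.23) and Dppa5a (-4.05 ± 0.34) were lower with it. Nanog was higher, from 9.84, 3.13 and 9.38 CPM to 26.9, 13.1 and 23.4 CPM (log2 fold change 1.51 ± 0.38, adjusted p = 0.0136). The GFP- libraries read far above both GFP+ groups, with Zfp42 at 94.1 to 144 CPM, Esrrb at 113 to 157 CPM and Nanog at 139 to 225 CPM. Of 14 core and primed genes, 5 were higher and 2 lower. Pou3f1, shared by primed cells and early neural cells, read 6.0, 5.44 and 4.46 CPM and 80.7, 75.2 and 70.0 CPM (log2 fold change 3.83 ± 0.30, adjusted p = 7.97e-06). Imprinted genes split evenly, 7 higher (3 without RA replicate 2, 4 without RA replicate 1 or SAG replicates 2 or 3) and 7 lower of 25. The lower ones included the growth genes Igf2 (-2.72 ± 0.33) and H19, which read 195, 90.5 and 200.1 CPM and 0.978, 5.99 and 17.4 CPM (log2 fold change -4.31 ± 0.70, adjusted p = 0.00103; -5.51 without SAG replicate 3), and Phlda2 (-5.41 ± 0.34). Nnat (1.20 ± 0.21) and Snrpn (0.94 ± 0.18), both expressed in neurons, were higher.

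Genes of the endoderm, mesoderm, surface ectoderm and blood and endothelium lists were lower far more often than higher under SAG. Of 18 endoderm genes, 10 were lower and 1 higher (0 without RA replicates 1 or 2 or SAG replicate 3). Sox17, which specifies endoderm, read 34.6, 49 and 55.3 CPM under RA and 0.896, 0.337 and 0.0389 CPM under SAG (log2 fold change -6.77 ± 0.55, adjusted p = 1.1e-05; -7.87 without SAG replicate 1), and Cubn, an uptake receptor of visceral endoderm, was lower (-6.45 ± 0.57; 184-fold lower by counts (62.9 to 895) without SAG replicate 1). Afp had 92 counts under RA and 0 under SAG, at least 28.1-fold lower. The summed endoderm and mesenchyme markers given above were lower in each SAG library than in each RA library, with 1 of 6 and 1 of 5 markers at 0 counts under SAG. Of 22 mesoderm and mesenchyme genes, 13 were lower (8 without RA replicate 2 or SAG replicate 2) and 0 higher. Osr1 had 423 and 0 counts, at least 129-fold lower, and Hand1 had 296 and 1, a ratio of 271 (95% exact interval 48.3 to 10800; at least 61.6-fold lower without SAG replicate 1). Twist1 (0.53 ± 0.27) and Col1a1 (0.06 ± 0.36) were not called. Of 16 surface ectoderm and epithelial genes, 9 were lower and 0 higher, led by the tight junction gene Cldn4 (-4.74 ± 0.38) and the keratins Krt7 (-4.93 ± 0.44), Krt8 and Krt18 (-2.71 ± 0.29). Krt8 read 87.2, 57.7 and 68.1 CPM under RA and 9.45, 6.52 and 5.1 CPM under SAG (log2 fold change -3.34 ± 0.35, adjusted p = 5.57e-05). Of 9 blood and endothelial genes, 5 were lower and 0 higher, with Pecam1 at -3.31 ± 0.28. The 3 blood and endothelium markers summed to 5.58 to 7.68 CPM under RA and 0.524 to 0.779 CPM under SAG, with Ptprc and Cdh5 at 0 counts under SAG. Most of each RA sum was Pecam1, at 7.45, 6.65 and 4.99 CPM, and Ptprc was at 0 in RA replicates 1 and 3 too. Pecam1 was higher in the GFP- libraries, at 40.7 to 68.4 CPM. The globin genes Hba-x and Hbb-bh1 had 0 counts in every library, so these values do not show blood cells in either medium. The 3 surface ectoderm markers summed to 1.55 to 3.61 and 0.234 to 1.1 CPM, with Krt14 at 0 counts in both media, and the 2 neural crest markers to 2.35 to 3.87 and 0.195 to 0.375 CPM. Of 14 neural crest genes, 3 were lower, with Sox10 at -3.82 ± 0.54 and Erbb3 at -2.15 ± 0.20, and 1 was higher (0 without RA replicates 1 or 2 or SAG replicates 2 or 3, 2 without SAG replicate 1).

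The cell cycle, stress and immediate early lists each had genes called in both directions, and the cholesterol synthesis list had higher genes alone. Of 30 cell cycle genes, 7 were lower and 2 higher (0 without RA replicates 1 or 2 or SAG replicate 2, 1 without RA GFP- replicate 2 or SAG replicate 3, 4 without RA GFP- replicates 1 or 3). Among the lower ones were 4 inhibitors of cyclin-dependent kinases: Cdkn1a read 233, 204 and 175 CPM under RA and 88.2, 44.6 and 60.2 CPM under SAG (log2 fold change -1.67 ± 0.23, adjusted p = 0.000365), and Cdkn1c (-1.42 ± 0.15), Cdkn2a (-2.54 ± 0.36) and Cdkn2b (-3.03 ± 0.73; -3.73 without SAG replicate 1 and -2.42 without SAG replicate 2) were lower too. Top2a (0.20 ± 0.14) and Mki67 (0.68 ± 0.26), which mark dividing cells, were not called. From the list of stress and apoptosis, the p53-induced genes Mdm2 (-0.91 ± 0.15), Trp53inp1 (-1.52 ± 0.21), Eda2r (-0.84 ± 0.19) and Phlda3 (-1.25 ± 0.29) were lower, and the genes Psat1 (1.77 ± 0.24) and Chac1 (2.74 ± 0.59; 3.33 without RA replicate 3 and 2.14 without SAG replicate 2) higher. That list had 5 higher (2 without RA replicate 2 or SAG replicate 2) and 5 lower (8 without SAG replicate 1) of 20. Immediate early genes, which cell handling can also move, were lower for 7 of 18 and higher for 1 (0 without RA replicates 2 or 3 or SAG replicates 1 or 3). Egr1 read 21.6, 22.2 and 22.3 CPM and 3.14, 1.2 and 3.15 CPM (log2 fold change -3.14 ± 0.31, adjusted p = 3.94e-05), and Junb (-3.37 ± 0.34) and Fos (-2.30 ± 0.50) were lower, while the heat shock gene Hspa8 (-0.11 ± 0.16) was not called. Of 16 cholesterol synthesis genes, 12 were higher (7 without RA replicate 2) and 0 lower. Hmgcs1, an early enzyme of the route, read 598, 532 and 697 CPM and 1267, 1115 and 1321 CPM (log2 fold change 1.02 ± 0.13, adjusted p = 0.000177), close to 2-fold, and Msmo1 (1.11 ± 0.14), Cyp51 (0.95 ± 0.12) and Idi1 (1.12 ± 0.21) rose by like amounts. Glycolysis and hypoxia genes varied between replicates: Ldha read 930.2, 116 and 1365 CPM under RA and 666, 1350.5 and 1403 CPM under SAG, lowest in RA replicate 2 and SAG replicate 1. Of 20 tested, 0 were higher (2 without SAG replicate 1) and 0 lower (1 without RA GFP- replicates 2 or 3 or RA replicate 2).

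**Figure D5:**
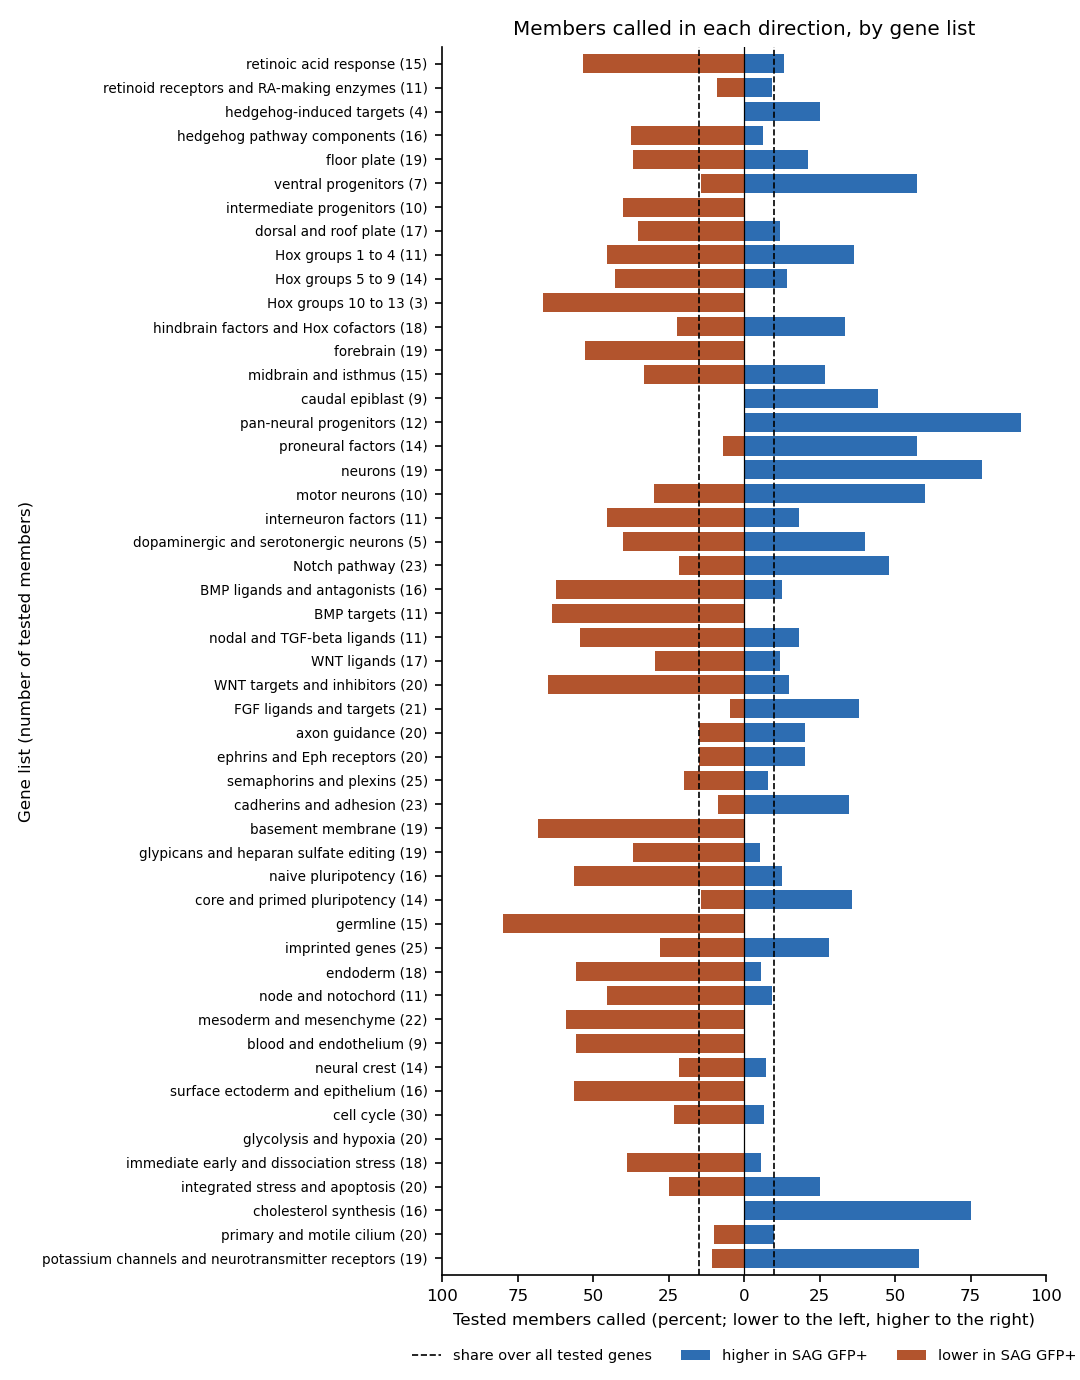
Percent of tested members called higher (blue, to the right) and lower (brown, to the left) in SAG GFP+ cells for each of 51 gene lists, with the number of tested members in brackets. Dashed lines mark the shares over all tested genes, 9.78% higher and 14.8% lower; neural progenitor, neuron and cholesterol lists reach farthest right, germline, basement membrane and RA response lists reach far left.

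Several genes of early or caudal cells were highest in SAG replicate 1, which was also the SAG library with the highest sums of pluripotent markers (53.2 to 200 CPM over the SAG and 28.8 to 36.8 CPM over the RA libraries) and of notochord markers (14.2 to 124 against 15.2 to 29.3 CPM, with Noto at 0 counts under RA). Nkx1-2, of caudal progenitors, read 0.431, 0.336 and 0.384 CPM under RA and 139, 9.93 and 3.78 CPM under SAG (log2 fold change 7.04 ± 1.36, adjusted p = 0.00313; over 17 alternatives adjusted p from 2.33e-21 to 0.0963, above 0.05 with limma-voom). Without SAG replicate 1 its log2 fold change was 4.16 (adjusted p = 0.00184). T, also called brachyury, of primitive streak and notochord, read 7.68, 2.69 and 1.57 CPM under RA and 110.3, 7.94 and 9.81 CPM under SAG (log2 fold change 3.43 ± 0.97, adjusted p = 0.0239; 4.32 without RA replicate 1; over 16 alternatives adjusted p from 7.02e-12 to 0.177, above 0.05 without RA replicates 2 or 3 or SAG replicate 1 and with limma-voom). Without SAG replicate 1 it was 1.18 (adjusted p = 0.176) and no longer called. Of 11 node and notochord genes T was the 1 higher (0 without RA replicates 2 or 3, 2 without SAG replicate 3), and 5 were lower. Pou5f1, the core pluripotency factor, read 5.02, 3.7 and 6.7 CPM and 171, 37.4 and 39.3 CPM (log2 fold change 4.0 ± 0.57, adjusted p = 0.000442), and 2.92 (adjusted p = 4.23e-05) without that library. Wnt8a, of the caudal epiblast and early hindbrain, read 1.37, 1.81 and 1.08 CPM and 123, 55.1 and 30.7 CPM (log2 fold change 5.61 ± 0.51, adjusted p = 2.3e-05), and 4.93 (adjusted p = 6.54e-06) without it. Egr2 went to 4.27 (adjusted p = 0.000152) and Hes3 (3.24 ± 0.77; over 17 alternatives adjusted p from 9.19e-13 to 0.0734, above 0.05 with limma-voom or a replicate block over those 6) to 1.5 (adjusted p = 0.0119). Nkx1-2, Pou5f1, Wnt8a, Egr2 and Hes3 were thus above every RA library in SAG replicates 2 and 3 as well, at lower values. Of 9 caudal epiblast genes, 4 were higher with all libraries, 3 without SAG replicate 1, and 0 lower (2 without SAG replicate 1). Over all genes, 4972 were called without SAG replicate 1, of which 3735 were also called, in the same direction, with all libraries.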

How the data were processed

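Poly(A) RNA was measured in 9 libraries with a kit that keeps strand, and the deposited values are whole-number counts per Ensembl gene. Per the submitters' processing notes the authors worked on GRCm38 with Bowtie2 2.3.4.1, after Trim Galore 0.5.0, and counted with featureCounts of Subread 1.6.2; the strand setting of the counting is not given in the sources used here, so reads of a gene and of an overlapping antisense gene cannot be told apart. Annotated antisense genes cover 52.9% of the exon length of Hoxb3, 43.5% of that of Gbx2 and 38.4% of that of Rarb. The share is 31.1% for Kcnj3, 28.3% for Shh, 27.3% for Hoxb2 and 25.7% for Fgf15, and further genes named here have such overlap. Gene positions come from GENCODE M21. Of 54532 genes, 24114 had no count, and 16772 passed edgeR's filterByExpr (minimum count 10). edgeR 4.0.16 in R 4.3.3 fitted 1 mean per group over all 9 libraries (TMM scaling, glmQLFit and glmQLFTest) and Benjamini-Hochberg adjustment ran over all 16772 genes. Alternatives were RLE or upper-quartile scaling, no filter, DESeq2 1.42.0, limma 3.58.1 with voom, the 6 GFP+ libraries alone, the replicate number as a block, each library left out with the filter applied anew, an adjusted p under 0.01 and a 2-fold minimum change.

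Members and the 51 gene lists were chosen with earlier results of these data known, so the lists carry no test of their own. Genes were named by rule: Foxa2 and Shh, the 15 largest and 15 smallest log2 fold changes among called genes that did not overlap and reached a mean of 5 CPM, the Hox genes, and, for each list and direction, the 3 called genes of lowest adjusted p. Further list members serve as examples and were picked after their values were seen. Some of the genes the rule names are not reported here. A group at 0 counts was set to a floor of 3 counts over the group, and ratios against 1 to 3 counts carry a 95% exact interval that covers counting error only. Sums of 25281871 to 29763765 counts per library set the depth.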

Additional observations from a re-analysis of the deposited data

How the results depend on the processing

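The number of genes called stayed within 1.5 times of 4117 under RLE scaling (4132), upper-quartile scaling (4128), no filter (4799), DESeq2 (4884), limma-voom (4145) and the 6 GFP+ libraries alone (4096). In those 6 libraries alone, 213 of the 4117 genes did not pass the filter and so were not tested. An adjusted p under 0.01 left 2266 genes, 806 higher and 1460 lower, and a 2-fold minimum change left 1281, 343 higher and 938 lower. Leaving out 1 library each gave 2747 to 4972 calls, 954 to 2092 higher and 1712 to 2880 lower. The number of higher genes was 954 without RA replicate 1 and 957 without RA replicate 2, and the cause was not tested. Of the 4117 genes, 2228 were called in all 17 refits (scaling, filter, tool, samples and block), and 0 changed sign in any of them. Whether the replicate numbers pair the libraries was not settled, since only 3 same-numbered pairs of RA and SAG libraries exist. Their deviations from the group means correlated at 0.111, -0.0816 and 0.182 across genes, and those of differently numbered ones at -0.234 to 0.152. Pairing of the GFP- with the GFP+ libraries of RA medium was not examined. With the replicate number as a block, 4552 genes were called over 6 libraries (2048 higher, 2504 lower) and 5368 over 9 (2271 higher, 3097 lower). Of 237 genes named by rule, 227 were called and 187 of these were called in all 17. The sign turned for 5 Hox genes, all uncalled. Leaving out 1 library each gave -0.18 to 1.17 for Hoxb3, below 0 without RA replicate 1. It gave -0.27 to 1.19 for Hoxb8, with -0.27 without RA replicate 1, -0.041 without RA replicate 2 and -0.23 without SAG replicate 3. The range was -0.86 to 0.47 for Hoxb7, above 0 without RA replicate 3, and -0.093 to 0.83 for Hoxc8, with -0.093 without RA replicate 3 and -0.029 without RA replicate 2. For Hoxa9 it was -0.39 to 2.70, with -0.39 without RA replicate 2, -0.38 without RA replicate 3 and -0.12 without SAG replicate 1. With 3 libraries a group and a biological coefficient of variation of 0.226, the smallest called change was 0.30 on the log2 scale.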

Other observations

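Among the 15 largest gains were genes of no list. Timp4, an inhibitor of matrix metalloproteinases, read 0.314, 0.202 and 0.0698 CPM under RA and 45.1, 52.9 and 43.3 CPM under SAG (log2 fold change 7.91 ± 0.65, adjusted p = 1.18e-05), with the SAG libraries close together and far above the RA libraries. Calca, which encodes calcitonin and the neuropeptide CGRP, read 0.941, 0.672 and 0.942 CPM and 30.0, 27.8 and 27.5 CPM (log2 fold change 5.06 ± 0.26, adjusted p = 6.39e-07). Sparcl1, a matrix protein relative of Sparc, read 3.33, 3.76 and 3.84 CPM and 62.7, 154 and 180.4 CPM (log2 fold change 5.18 ± 0.40, adjusted p = 7.39e-06). None of these 3 genes overlapped between the media. Of the largest falls, Fndc1 read 32.9, 40.8 and 38.8 CPM under RA and 0.0407, 0.262 and 0.0389 CPM under SAG (log2 fold change -8.27 ± 0.44, adjusted p = 7.74e-07; 947-fold lower by counts (262 to 7830) without SAG replicate 2), and Aldh3b2, an aldehyde dehydrogenase, 64, 40.9 and 49.7 CPM and 0.122, 0.225 and 0.311 CPM (log2 fold change -7.84 ± 0.51, adjusted p = 3e-06). Fbxo40 had 511 counts under RA and 0 under SAG, at least 156-fold lower against the floor of 3 counts over the group.

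Some calls sat side by side in the genome, and these families and loci were picked after their values were seen. At X:37209348-37901770 (GRCm38) 7 tested neighbours of the Rhox locus were all lower, and of all 7 tested Rhox homeobox genes 6 were lower and 0 higher (median log2 fold change -4.72). Zscan4 genes, known from the rare state of embryonic stem cells that resembles early embryos, had 8 of 9 lower and 0 higher (median -5.80 by the fit). Zscan4f, at -5.80, had 21 counts over the RA libraries and 0 over the SAG libraries, and Zscan4d had 91 and 5. At such counts the direction is given, but the size of the fold, and so of this median, is uncertain. Protocadherin beta genes, which give neurons their surface identity, had 15 of 20 higher and 0 lower (median 1.92), whereas 2 of 22 protocadherin gamma genes were higher and 0 lower (median 0.04). Reads of near-identical copies within these 4 families can be shared, which makes the values of single members uncertain. On chromosome 7, Ano1, Fgf3, Fgf4, Gm26793 and Fgf15 followed each other and were all higher. On chromosome 19, Hhex, Exoc6, Cyp26c1, Cyp26a1 and Myof followed each other and were all lower.

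The X chromosome had 115 of 578 tested genes higher and 90 lower (35.5% called), against 20.2% to 28.0% on the 19 autosomes. Its median log2 fold change was 0.15, and those of the autosomes ran from -0.11 to 0.07. Xist, the RNA that coats an inactive X, read 72.2, 55.4 and 43.5 CPM under RA and 7.74, 4.87 and 11.4 CPM under SAG (log2 fold change -2.83 ± 0.32, adjusted p = 8.53e-05), lower in each SAG library than in each RA library. The GFP- libraries, also from RA medium, read 10.3, 17.6 and 14.6 CPM. Antisense genes overlap 11.5% of the exon length of Xist, and the strand setting is not known. Whether any cells held an inactive X, and whether Xist bears on the other X-linked genes, was not tested.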
